A study of Mus musculus with 90 samples.

Results

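The members are the small nucleolar RNA genes of the H/ACA class (Snora) and of the C/D class (Snord), and the small nucleolar RNA host genes (Snhg). They were taken by name, as every gene called Snora or Snord followed by a digit and every gene called Snhg followed by a number only. The rule found 125 genes (36 Snora, 73 Snord and 16 Snhg) among the 24961 genes of the embryoid body table and the 24984 genes of the neural progenitor table. The rule reads names and not levels, though it was set with earlier results of these data known. After the filter on low counts, 107 members were tested in each series (31 Snora, 60 Snord and 16 Snhg), 106 of them in both. Snord33 passed only in the embryoid body series and Snord123 only in the neural progenitor series. Of the 17 members tested in neither, 12 had no read in any library and the others reached at most 10 reads in one library.

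J1 cells, a line of mouse embryonic stem cells, and cells derived from them were profiled by RNA-seq of total RNA after removal of ribosomal RNA. The lines carried the CBX7-CaPS genotype, the CBX7-mCaPS genotype, the CBX7 KO genotype or the CBX7-CaPS-R genotype, and WT cells were the reference. CBX7 is a chromobox subunit of Polycomb repressive complex 1, CaPS stands for a compaction and phase separation domain known from CBX2, mCaPS is the mutated form of that domain, and what sets CBX7-CaPS-R apart was not given in the sources used here. Stem cells were grown on a layer of mouse fibroblast feeders with LIF and were freed of feeders before differentiation. Embryoid bodies (EB series) were made in hanging drops and then in suspension in medium without LIF, and were sampled at days 0, 6 and 10. Neural progenitor cells (NPC series) were made by aggregation without LIF followed by retinoic acid, and were sampled at days 0, 6 and 8. Each line, series and day had 3 libraries, with separate day 0 libraries for each line and series. Whether the 3 libraries of a group came from separate cultures or clones was not given, so every p-value below measures only the spread between libraries.

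Small nucleolar RNAs are short RNAs that guide chemical changes to ribosomal RNA in the nucleolus. C/D RNAs pair with the site of a ribose methylation and are bound by fibrillarin, NOP56 and NOP58, and H/ACA RNAs pair with the site of a pseudouridine and are bound by dyskerin, NHP2, NOP10 and GAR1. Most of them in mammals are cut out of introns of host genes. Many hosts encode ribosomal proteins or translation factors, and the Snhg hosts are spliced RNAs with little coding capacity, many of which are degraded by nonsense-mediated decay once spliced. Ribosome production is high in embryonic stem cells and generally declines as they differentiate.

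Of the 109 small nucleolar RNA members, 98 lay on the strand of a host gene, within 72 different hosts. Of these 93 lay wholly in an intron and 5 overlapped an exon of the host (Snora24 in Snhg8, Snora26 in Dancr, Snord1a, Snord7 and Snord45c). All 5 were among the members with no read in any library, and whether these RNAs were absent was not tested. A count at an intronic member holds reads from the mature small RNA and from unspliced host RNA, which cannot be told apart here. The median tabulated length was 119.5 bases for Snora and 68 bases for Snord. Some members have copies that share reads, namely Snord116l1 and Snord116l2, Snord14c and Snord14d, and Snora19, Snord53 and Snord58b, which the table places on several chromosomes, and their counts are uncertain. All of them but Snord53 and Snord58b had no read in any library, which need not mean that the RNA was absent.

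The RNAs below carry the main results, and are printed from the GENCODE vM21 annotation of GRCm38 (mm10) as the sense strand, with T for U. The first 8 were lower on the last day than on day 0 in the 4 lines of both series, and Snora47, Snord98 and Snord15b are shown for contrast because they were not. Snord1b, Snord1c and Snord43 were lower in all of these as well, but are not printed. Capitals in Snord RNAs mark the C box TGATGA, searched in the first 25 bases, and the D box CTGA, searched in the last 20 bases. Capitals in Snora RNAs mark the ACA searched in the last 8 bases. Only the gene's own strand was searched. Both boxes were found in 68 of 98 annotated Snord RNAs (69.4%) and the ACA in 40 of 42 annotated Snora RNAs (95.2%). Snord2 and Snord98 held no exact TGATGA in that window, nor did Snord1b and Snord1c. The tabulated gene was shorter than the annotated RNA for some of them, at 62 against 130 bases for Snora61, 28 against 65 bases for Snord98 and 56 against 74 bases for Snord99.
Snora3 (intron of Rpl27a, chr7:109520120-109520251, plus strand): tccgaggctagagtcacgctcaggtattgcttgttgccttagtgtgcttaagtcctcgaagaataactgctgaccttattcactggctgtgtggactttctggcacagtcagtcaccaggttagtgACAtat
Snora31 (intron of Tpt1, chr14:75847905-75848034, plus strand): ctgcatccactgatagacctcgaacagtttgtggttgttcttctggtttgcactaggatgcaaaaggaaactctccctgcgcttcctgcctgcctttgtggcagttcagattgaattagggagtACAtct
Snora61 (intron of Snhg12, chr4:132310240-132310369, plus strand): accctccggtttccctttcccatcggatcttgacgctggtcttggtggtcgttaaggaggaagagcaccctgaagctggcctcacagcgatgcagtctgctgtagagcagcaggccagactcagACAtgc
Snord2 (intron of Eif4a2, chr16:23108953-23109021, plus strand): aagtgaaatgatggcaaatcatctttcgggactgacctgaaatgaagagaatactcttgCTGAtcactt
Snord83b (intron of Rpl3, chr15:80078498-80078591, minus strand): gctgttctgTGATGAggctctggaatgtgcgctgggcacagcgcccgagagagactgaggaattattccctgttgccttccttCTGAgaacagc
Snord95 (intron of Rack1, chr11:48803139-48803206, plus strand): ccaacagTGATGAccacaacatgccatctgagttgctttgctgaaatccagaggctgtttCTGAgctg
Snord99 (intron of Snhg12, chr4:132310691-132310764, plus strand): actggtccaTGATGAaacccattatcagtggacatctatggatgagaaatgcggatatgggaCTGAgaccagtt
Snord100 (intron of Rps12, chr10:23785750-23785823, minus strand): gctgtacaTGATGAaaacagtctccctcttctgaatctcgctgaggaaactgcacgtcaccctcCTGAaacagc
Snora47 (intron of Zbed3, chr13:95330600-95330737, plus strand): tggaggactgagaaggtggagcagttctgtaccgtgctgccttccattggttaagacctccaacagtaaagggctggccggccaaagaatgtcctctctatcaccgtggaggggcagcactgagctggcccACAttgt
Snord98 (intron of Ccar1, chr10:62765576-62765640, minus strand): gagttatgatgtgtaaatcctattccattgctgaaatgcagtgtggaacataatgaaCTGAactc
Snord15b (intron of Rps3, chr7:99479563-99479707, minus strand): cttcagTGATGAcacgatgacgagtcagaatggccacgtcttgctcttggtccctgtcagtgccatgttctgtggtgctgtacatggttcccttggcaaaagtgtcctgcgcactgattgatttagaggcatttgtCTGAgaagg

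The libraries of the 4 lines that share a table held 10.6 to 55.9 M counts (M stands for 1000000) for embryoid bodies and their day 0, and 11.8 to 59.3 M for neural progenitors and theirs. The members took 0.0139 to 0.185% of the counts of an EB library and 0.0344 to 0.102% of those of an NPC library. Rn45s, the ribosomal RNA precursor left after depletion, took 2.73 to 88.7% and 4.24 to 50.4% of the counts. In the 6 EB libraries of WT and CBX7-CaPS numbered 1, 42.1 to 43.5% of the counts between 1 and 20 were even, against 73.5 to 94.2% in the other 30 EB libraries. The summed Snora level was also higher in those 6, with a median of 171 counts per 1000000 (CPM) against 93.8 CPM in the other 30. The median was 144 against 116 CPM for the Snord sum and 394 against 329 CPM for the Snhg sum, and the ranges overlapped for all sums. Those 6 also held fewer counts (median 15.2 against 43.35 M) and less Rn45s (median 3.20 against 22.45%). In EB CBX7-mCaPS day 0 library 3, Rn45s took 88.7% of the counts, the Snord sum was 455 CPM, the highest of the 36 EB libraries, and a sum of feeder fibroblast genes was 11630 CPM. Cbx7 itself had 19.97 to 122 CPM in the EB libraries labelled KO and 7.56 to 132 CPM in the WT libraries, while the NPC libraries had 14.7 to 137 CPM where labelled KO and 17.3 to 191 CPM in WT, so a count over the whole gene did not check the label. KO below stands for the libraries so labelled.

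Levels below are CPM after TMM scaling, and changes are log2 ratios with their standard error (SE) from edgeR's quasi-likelihood test, with Benjamini-Hochberg adjustment over all genes tested and a threshold of 0.05. These are bulk libraries, so fewer cells with a high level and less RNA in every cell cannot be told apart.

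Per kilobase of tabulated length, the small nucleolar RNA with the highest mean level over the WT libraries of each series was Snora74a, with 213 CPM per kilobase in the EB series (87.3 to 496 over the libraries) and 98.8 CPM per kilobase in the NPC series. Snora74a, also known as U19, lies in an intron of Snhg4. Snora61, Snora65 and Snora17 were among the 5 highest H/ACA members in both series, with 93.6, 83.7 and 67.8 CPM per kilobase in the EB series and 79.8, 53.9 and 49.6 CPM per kilobase in the NPC series. Snora78 (86.1 CPM per kilobase) was the other one in the EB series, and Snora43 (43.5 CPM per kilobase) in the NPC series. Snora61 was counted over 62 tabulated bases, while the annotated RNA has 130, so its level per kilobase and its rank are uncertain. The highest C/D members per kilobase were Snord15b (120), Snord17 (104), Snord96a (90.3), Snord104 (81.3) and Snord22 (76.1) in the EB series. In the NPC series they were Snord96a (91.9), Snord17 (89.8), Snord104 (84.9), Snord43 (83.7) and Snord15b (82.2). Among hosts, Snhg1 was highest, with 158 CPM per kilobase over the EB libraries and 132 over the NPC libraries. Snhg5, Snhg3, Snhg12 and Snhg15 followed, between 32.8 and 54.8 CPM per kilobase.

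The first comparison asked what became of the members as WT cells formed embryoid bodies. On day 10, 38 of the 107 members tested were lower than on day 0 and none was higher, by edgeR's quasi-likelihood test with Benjamini-Hochberg adjustment. Over all 17791 genes tested, 14.5% were lower and 14.7% higher. No member was higher at an unadjusted p under 0.05 or with DESeq2. The lower members were 9 of 31 Snora, 21 of 60 Snord and 8 of 16 Snhg. The median log2 change was -1.30 over the members and -0.02 over all genes, and 92 of the 107 members lay below 0.

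The 5 lower members with the smallest p held an H/ACA RNA, 3 C/D RNAs and a host. Snord1c, a C/D RNA in an intron of 1810032O08Rik, had 0, 0.157 and 0.131 CPM in the 3 day 10 libraries, against 1.78, 0.967 and 1.04 CPM on day 0. Snord2, whose host Eif4a2 encodes a translation initiation factor, had 1.16, 1.53 and 2.00 CPM on day 10 and 12.5, 6.13 and 4.92 CPM on day 0. Neither had a day 10 library that reached its lowest day 0 library. The log2 change was -3.59 (SE 0.597, adjusted p = 4.61e-05, edgeR) for Snord1c and -2.32 (SE 0.394, adjusted p = 6.84e-05) for Snord2. Snora3, an H/ACA RNA in an intron of the ribosomal protein gene Rpl27a, had 2.05, 1.49 and 1.86 CPM on day 10, against 8.19, 4.98 and 4.30 CPM on day 0. Snord43, from an intron of the ribosomal protein gene Rpl3, had 0.934, 1.02 and 1.52 CPM on day 10, against 5.70, 4.54 and 4.11 CPM on day 0. Both groups were again apart in every library, with log2 changes of -1.69 (SE 0.301, adjusted p = 0.000114, edgeR) and -2.03 (SE 0.38, adjusted p = 0.000195). Snhg3, a host whose introns hold Snora73 RNAs, had 5.12, 7.18 and 10.3 CPM on day 10, against 37.2, 25.7 and 16.5 CPM on day 0. Its log2 change was -1.81 (SE 0.347, adjusted p = 0.000248, edgeR), and the groups did not overlap.

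The summed levels varied more than these members did. The Snora sum was 201, 72.8 and 88.2 CPM in the day 10 libraries, against 342, 101 and 94.8 CPM in the day 0 libraries, and the groups overlapped. The Snord sum was 149, 109 and 109 CPM on day 10, against 315, 120 and 117 CPM on day 0, and the groups overlapped as well. Library 1 was the highest on each day for both sums. The Snhg sum was 298, 211 and 243 CPM on day 10, against 797, 384 and 320 CPM on day 0, with no overlap. As CPM outside Rn45s without TMM the Snhg groups did overlap, with up to 438 on day 10 and from 420 on day 0. Library 1 of each day is one of the 6 with the different share of even counts. Without those 6 libraries 15 members were called, and without day 0 library 1 alone 14 were, while leaving out day 10 library 2 gave 21. Without day 0 library 1 the log2 ratio of the sums turned to 0.30 for Snora and 0.04 for Snord, and stayed at -0.49 for Snhg.

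**Figure D1:**
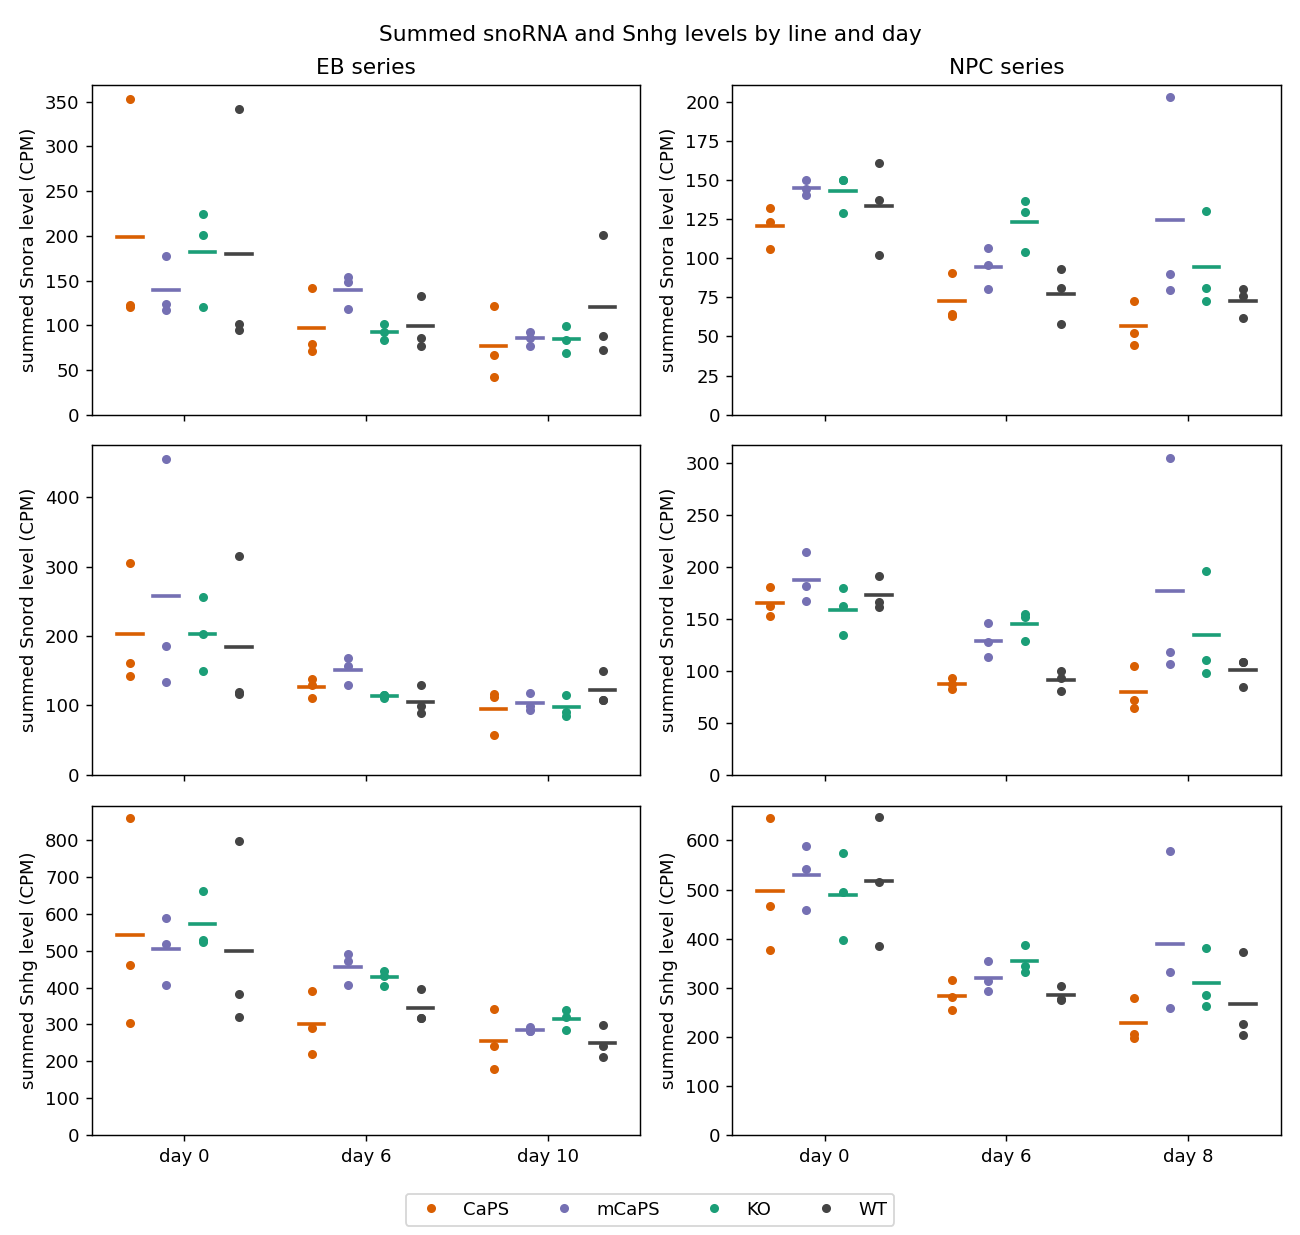
Summed level (CPM) of the Snora, Snord and Snhg members in every library, by day and line, with the EB series on the left and the NPC series on the right. Points are libraries and bars are means of 3. On this scale the Snhg sum is lower in all 3 WT libraries of the last day than in all 3 of day 0 in both series, and 1 EB WT library of day 0 stands above the other WT libraries in all 3 sums.

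At day 6 of the WT embryoid bodies fewer members had passed the test. Of the 107 members 5 were lower than on day 0 and none was higher, where 4.62% of all genes were lower and 3.26% higher. The share of lower members was thus close to that of all genes. The median log2 change was -0.97 over the members and -0.02 over all genes, and 98 of the 107 members lay below 0. At an unadjusted p under 0.05, 3 members were higher, and DESeq2 called none higher. Snora31, an H/ACA RNA in an intron of Tpt1, had 1.24, 1.23 and 1.34 CPM on day 6, against 4.04, 3.98 and 3.49 CPM on day 0, a log2 change of -1.59 (adjusted p = 0.0147, edgeR). The other 4 were Snord2 (log2 change -1.41), Snord43 (-1.37), Snhg12 (-1.06) and Snhg8 (-1.57). The count was 19 with the replicate number as a block. Without a library it lay between 0 (without day 6 library 2) and 5, and was 2 without library 1 of either day.

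The second comparison asked the same of neural progenitors. In WT cells on day 8, 56 of the 107 members tested were lower than on day 0 and 3 were higher (edgeR), where 24.9% of all 17818 genes were lower and 27.5% higher. The lower ones were 15 of 31 Snora, 32 of 60 Snord and 9 of 16 Snhg. The median log2 change was -1.24 over the members and 0.05 over all genes, and 95 of the 107 lay below 0. Each time a library was left out, between 46 and 55 of the members were called in either direction.

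The 5 lower members with the smallest p were all small nucleolar RNAs. Snord83b, in an intron of Rpl3, had 1.57, 1.43 and 1.35 CPM in the day 8 libraries, against 10.7, 8.09 and 8.52 CPM on day 0. Snord100, in an intron of the ribosomal protein gene Rps12, had 0.564, 1.24 and 1.09 CPM on day 8, against 4.42, 4.97 and 5.47 CPM on day 0. In both, every day 8 library lay below every day 0 library. The log2 changes were -2.65 (SE 0.356, adjusted p = 6.84e-07, edgeR) and -2.36 (SE 0.355, adjusted p = 3.48e-06). The H/ACA RNA Snora61 and the C/D RNA Snord99 come from introns of Snhg12. Snora61 had 1.48, 2.50 and 1.95 CPM on day 8, against 13.2, 7.54 and 10.4 CPM on day 0, and Snord99 had 0.653, 0.269 and 0.713 CPM on day 8, against 3.15, 3.38 and 6.05 CPM on day 0. Neither RNA overlapped between the days, with log2 changes of -2.39 (adjusted p = 5.36e-06, edgeR) and -2.95 (adjusted p = 1.4e-05). The last was Snord49a, with 1.19, 2.02 and 1.43 CPM on day 8, against 7.57, 5.41 and 7.03 CPM on day 0 (log2 change -2.11, adjusted p = 1.18e-05, edgeR).

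The summed levels after TMM scaling were apart in every WT library of the NPC series. The Snora sum was 61.6, 75.7 and 80.2 CPM on day 8, against 102, 137 and 161 CPM on day 0. The Snord sum was 84.2, 109 and 109 CPM on day 8, against 166, 161 and 191 CPM on day 0. The Snhg sum was 203, 373 and 226 CPM on day 8, against 385, 516 and 649 CPM on day 0. All 3 sums were thus lower on day 8 without overlap on this scale, by means of 72.5 ± 9.73 against 133 ± 29.6 CPM for Snora, 101 ± 14.2 against 173 ± 16.2 CPM for Snord and 267 ± 91.9 against 517 ± 132 CPM for Snhg (SD, n = 3 each). As CPM outside Rn45s without TMM, Snora and Snord stayed apart. The Snhg groups overlapped there, with up to 510 on day 8 and from 476 on day 0.

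In WT cells of the NPC series 4 of these 5 leading members also led on day 6. Of the 107 members 43 were lower than on day 0 and none was higher, where 18.2% of all genes were lower and 19% higher. None was higher at an unadjusted p under 0.05 or with DESeq2. The smallest p belonged to Snord100 (log2 change -2.27), Snord83b (-2.23), Snora61 (-2.06), Snord99 (-2.39) and Snhg12 (-1.83), with adjusted p of 1.36e-05, 1.47e-05, 6.67e-05, 0.000244 and 0.000589 by edgeR. Snord100 had 1.09, 1.10 and 0.890 CPM on day 6, and Snord83b had 2.01, 2.00 and 1.81 CPM, all below the lowest day 0 library. The count was 28 without day 0 library 3.

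The 2 series have no library in common, so their calls could be set side by side. In WT cells 34 of the 106 members tested in both series were lower in both, where 11.4% of the 17345 genes tested in both were. The 34 are 89.5% of the 38 called in embryoid bodies and 60.7% of the 56 called in neural progenitors. Over all genes 1977 were lower in both, beside 2579 lower in embryoid bodies and 4439 lower in neural progenitors. No member passed in opposite directions in the 2 series within WT. In CBX7-CaPS cells 34 were lower in both, 75.6% of 45 and 61.8% of 55. Over all genes 1712 were (9.87%), beside 2153 lower in embryoid bodies and 4026 in neural progenitors. In CBX7-mCaPS cells there were 21, 70% of 30 and 65.6% of 32. Over all genes 2032 were (11.7%), beside 3292 and 3823. In KO cells there were 15, 68.2% of 22 and 38.5% of 39. Over all genes 1107 were (6.38%), beside 1756 and 3579. In each line most genes lower in embryoid bodies were thus lower in neural progenitors too, so such overlap was not particular to the members.

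Over the 4 lines and 2 series there were 8 comparisons of the last day with day 0. Among the 106 members tested in both series, 14 were lower in all 8 comparisons, where 4.18% of the 17345 genes tested in both were. They were the hosts Snhg3, Snhg4 and Snhg7, the H/ACA RNAs Snora3, Snora31 and Snora61, and the C/D RNAs Snord1b, Snord1c, Snord2, Snord43, Snord83b, Snord95, Snord99 and Snord100. Snhg5, Snora62 and Snord93 were lower in 7 of the 8, and missed only in the KO embryoid bodies. In all, 78 of the 106 members were lower in at least 1 comparison, as were 39.1% of all genes, and 69 had a log2 change below 0 in all 8, as had 25% of all genes. Higher in at least 1 comparison were 7 members (Snhg10, Snhg11, Snhg18, Snhg20, Snora47, Snord67 and Snord98) and 43% of all genes. The count of 14 fell to 7 without the 6 EB libraries of WT and CBX7-CaPS numbered 1, and the 7 were Snhg3, Snhg4, Snora3, Snora31, Snord2, Snord43 and Snord83b. It was 8 without EB WT day 0 library 1, EB CBX7-CaPS day 0 library 1 or EB KO day 10 library 1, and 9 without EB CBX7-mCaPS day 10 library 3. Only Snhg3 and Snora3 were lower in all 8 under each alternative run.

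Snhg3 illustrates the range over lines. In the NPC series it had 7.34, 8.99 and 8.81 CPM in CBX7-CaPS cells on day 8, against 15.7, 41.3 and 44.8 CPM on day 0. In CBX7-mCaPS cells it had 10.52, 13.3 and 14.9 CPM on day 8, against 30.0, 39.3 and 43.8 CPM on day 0. In KO cells it had 10.4, 9.94 and 9.94 CPM on day 8, against 22.9, 33.4 and 42.8 CPM on day 0. WT cells had 7.30, 9.99 and 11.4 CPM on day 8, against 16.3, 45.8 and 48.8 CPM on day 0. No line overlapped between the days, and the log2 changes of Snhg3 over the 8 comparisons ran between -1.55 (CBX7-mCaPS, NPC) and -2.02 (CBX7-CaPS, NPC). Those of Snora3 ran between -1.36 (KO, NPC) and -1.92 (CBX7-CaPS, NPC), and those of Snord83b between -1.57 (CBX7-mCaPS, NPC) and -3.15 (CBX7-CaPS, NPC).

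A further 28 members were lower in none of the 8 comparisons. Among them were the hosts Snhg6, Snhg10, Snhg11, Snhg18 and Snhg20, and Snora74a, Snord15b and Snord17, which were among the highest per kilobase. Snora74a had 98.1, 29.7 and 34.1 CPM in WT embryoid bodies on day 10, against 96.6, 17.3 and 20.6 CPM on day 0, and 17.3, 16.3 and 21.3 CPM in WT neural progenitors on day 8, against 10.4, 29.8 and 19.7 CPM on day 0. Its groups overlapped in both series, with adjusted p of 0.811 and 0.851 (edgeR). Snord15b, whose host is Rps3, had 41.0, 17.8 and 13.6 CPM on day 10, against 32.9, 8.62 and 10.5 CPM on day 0 of the EB series, and 9.97, 12.7 and 20.3 CPM on day 8, against 14.1, 13.6 and 7.11 CPM on day 0 of the NPC series. It overlapped too, with log2 changes of 0.48 (SE 0.713) and 0.30 that did not pass the test. Snord17 in an intron of Snx5 had 24.8, 24.3 and 27.1 CPM on day 8 of the NPC series, against 15.6, 19.5 and 18.1 CPM on day 0. Those groups were apart, but its adjusted p was 0.345 (edgeR). Snord118, the U8 RNA needed to mature the large subunit RNAs, was also never called, with WT log2 changes of -0.16 in embryoid bodies and 0.80 in neural progenitors.

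The 3 members higher in WT neural progenitors were Snord98, Snhg11 and Snora47. Snord98, in an intron of Ccar1, had 0.504, 1.05 and 0.375 CPM on day 8, against 0, 0.026 and 0.254 CPM on day 0 (log2 change 2.77, SE 0.918, adjusted p = 0.0117, edgeR). Snhg11, a host expressed in neurons, had 24.5, 108 and 33.7 CPM on day 8, against 17.3, 26.9 and 34.4 CPM on day 0 (log2 change 1.08, SE 0.384, adjusted p = 0.0196). Its groups overlapped, and 1 day 8 library carried most of the difference. Snora47, in an intron of Zbed3, had 1.42, 2.29 and 0.901 CPM on day 8, against 0.298, 1.09 and 0.943 CPM on day 0 (log2 change 0.97, SE 0.412, adjusted p = 0.0484), and also overlapped. In the WT embryoid bodies none of these passed, with log2 changes of -0.67 for Snord98, 0.36 for Snhg11 and 0.39 for Snora47.

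All 16 Snhg hosts could be tested in both series, and in WT cells they fell into those lower in both, those lower in one and those not called lower. Snhg12, host of Snora16a, Snora44, Snora61 and Snord99, had 9.61, 14.9 and 15.4 CPM in embryoid bodies on day 10, against 54.8, 30.5 and 25.1 CPM on day 0. In neural progenitors it had 9.76, 11.04 and 10.7 CPM on day 8, against 45, 47.3 and 63.8 CPM on day 0. The days did not overlap in either series, with log2 changes of -1.47 (SE 0.324, adjusted p = 0.00108, edgeR) and -2.31 (SE 0.401, adjusted p = 2.55e-05). Snhg4, host of Snora74a, had 9.30, 7.14 and 10.4 CPM on day 10, against 40.8, 16.1 and 20.9 CPM on day 0 of the EB series, and 4.84, 8.88 and 6.91 CPM on day 8, against 16.2, 28.7 and 42.2 CPM on day 0 of the NPC series. It was also apart in both, with log2 changes of -1.53 (adjusted p = 0.00122) and -2.08 (adjusted p = 4.54e-05). Snhg7 (log2 changes -1.31 and -1.56), Snhg5 (-1.28 and -1.21), Snhg8 (-1.67 and -0.86), Snhg15 (-1.06 and -1.64), Snhg17 (-0.66 and -0.65) and Snhg3 passed in both series as well. Snhg1, host of Snord22, had 81.5, 26.4 and 36.2 CPM on day 10, against 217, 90.7 and 62.9 CPM on day 0 of the EB series, where its groups overlapped and it did not pass (log2 change -1.36, adjusted p = 0.067, edgeR). It passed in the NPC series, with 40.3, 38.4 and 28.1 CPM on day 8, against 59.5, 109 and 138 CPM on day 0 (log2 change -1.52, adjusted p = 0.000735). Besides Snhg11, the WT log2 changes of the rest did not pass in either series, and were -0.24 and -0.34 for Snhg6, 0.14 and -0.18 for Snhg14, 0.06 and -0.56 for Snhg18, 0.45 and 0.45 for Snhg20 and 0.62 and 0.61 for Snhg10. Snhg9 was close to the detection limit, with 0, 0 and 0.0788 CPM on day 10 against 0.178, 0.223 and 0.132 CPM on day 0 of the EB series, and did not pass in either series.

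**Figure D2:**
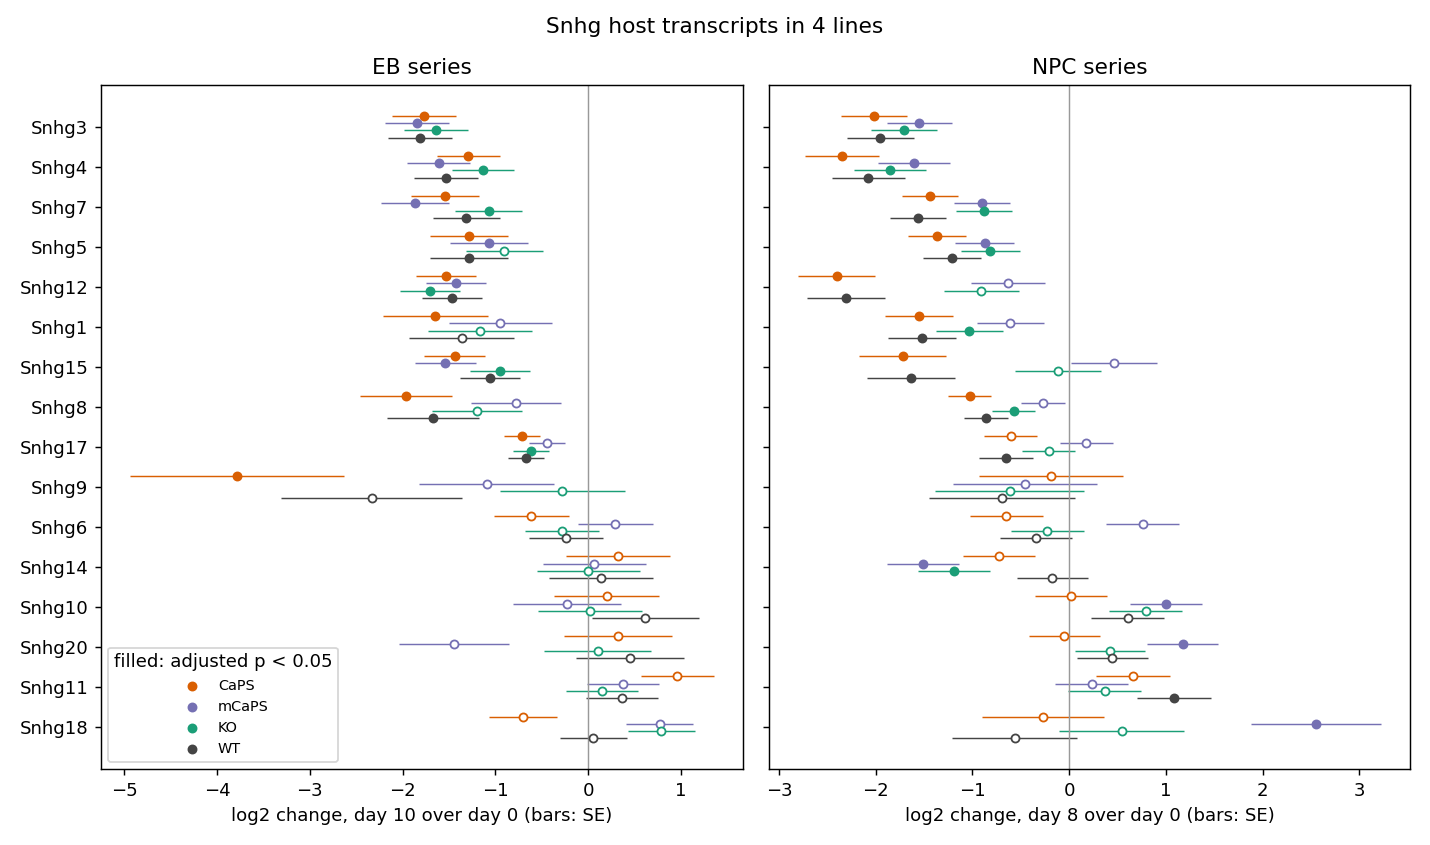
Log2 change of the 16 Snhg hosts on the last day over day 0, with the SE as bars, for each of the 4 lines in the EB series (left) and the NPC series (right). Filled points have an adjusted p under 0.05. Snhg3, Snhg4 and Snhg7 are filled and below 0 in all 8 comparisons, and Snhg15 lies near or above 0 only in the NPC series of the KO and CBX7-mCaPS lines.

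Outside WT, Snhg14, the host of an imprinted cluster of C/D RNAs, was lower in 2 lines of the NPC series. In CBX7-mCaPS cells it had 21.4, 29.4 and 18.1 CPM on day 8, against 66.0, 68.6 and 61.6 CPM on day 0 (log2 change -1.51, SE 0.373, adjusted p = 0.00167, edgeR). In KO cells it had 29.3, 26.6 and 16.1 CPM on day 8, against 49.5, 54.6 and 60.8 CPM on day 0 (log2 change -1.19, adjusted p = 0.0105). No library overlapped in either line.

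Many genes of the translation machinery begin with a C followed by a run of pyrimidines, which ties their translation to growth signals, and several Snhg genes are known to share it. The RefSeq start of each gene on GRCm38.p6 was searched on the gene's own strand for a C followed directly by at least 4 bases that are C or T. It was found in 2 of the 14 Snhg hosts with a start in that annotation, in 14 of 63 ribosomal protein genes (22.2%) and in 813 of 27025 genes (3.01%). The 2 hosts are shown with 10 bases before the start and 25 from it, and capitals mark the C and the run.
Snhg7 (chr2:26640220-26640254, minus strand): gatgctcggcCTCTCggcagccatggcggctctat
Snhg8 (chr3:123508312-123508346, minus strand): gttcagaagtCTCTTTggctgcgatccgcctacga
Both hosts were lower on the last day in the WT cells of both series, as were 11.4% of all genes tested in both. Snhg3, Snhg5, Snhg12, Snhg15 and Snhg17, without the run at the annotated start, were lower in both as well. A link between the run and the change was not tested. A start that is off by a base in the annotation gives no match, so the other 12 say only that these letters are not at the annotated start.

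Each intronic member was next set beside its host. In WT embryoid bodies 86 pairs of a member and a host, with 63 hosts, could be tested. Of the hosts 16 were lower on day 10, none was higher and 47 passed in neither direction, where 14.5% of all genes were lower and 14.7% higher. Of the 28 lower members in these pairs, 7 had a lower host and 21 had a host that was not called. The median log2 change was -1.33 for the members and -0.32 for the hosts, and the member lay below its host in 69 of 86 pairs. In WT neural progenitors, of 64 hosts in 86 pairs 32 were lower, 1 was higher and 31 were neither, where 24.9% of all genes were lower and 27.5% higher. Of the 46 lower members, 31 had a lower host and 15 did not. The medians were -1.28 for the members and -0.58 for the hosts, and the member lay below its host in 58 of 86 pairs. Members of one host share it, so the pairs are not independent, and Pearson's r over the pairs was 0.20 in embryoid bodies and 0.52 in neural progenitors as a description.

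The pairs differed by host. Rpl3, which encodes a protein of the large ribosomal subunit and holds Snord43 and Snord83b, had a WT log2 change of -0.25 (adjusted p = 0.55) in embryoid bodies and of -2.32 (adjusted p = 4.17e-08, edgeR) in neural progenitors, while both RNAs were lower in both. Rps12, host of Snord100 and Snora33, was similar, at -0.32 and -2.30. Tpt1, which encodes translationally controlled tumor protein, had log2 changes of 0.17 and 0.17, while its Snora31 had -1.71 and -1.48 and passed in both. Rack1, which encodes a scaffold protein of the small subunit, had 0.08 and -0.27, while its Snord95 had -1.20 and -1.20 and passed in both. Rpl27a had -0.13 and -0.60, against -1.69 and -1.85 for Snora3. Eif4a2 had -0.87 and -0.31, against -2.32 and -1.57 for Snord2. Snx5 went the other way, at -0.85 and -1.34 and passing in both, while its Snord17 had 0.95 and 0.52 and passed in neither.

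RNAs within one Snhg host also differed from each other. In the NPC series Snhg12 had a log2 change of -2.31 and its RNAs Snora16a (-2.14), Snora44 (-1.34), Snora61 (-2.39) and Snord99 (-2.95) were below 0 as well. In the EB series Snhg12 had -1.47, with -1.09 for Snora16a (adjusted p = 0.0813), -1.28 for Snora44 (adjusted p = 0.218), -2.31 for Snora61 and -2.17 for Snord99, of which Snora61 and Snord99 passed. Snhg7 had -1.31 and -1.56, with -1.48 and -1.33 for Snora17, which passed only in the NPC series, and -0.38 and -0.05 for Snora43, which passed in neither. Snhg4 had -1.53 and -2.08, while Snora74a had 0.27 and -0.13. Snhg1 had -1.36 and -1.52, with -0.99 (adjusted p = 0.0535) and -1.02 (adjusted p = 0.0152) for Snord22, the U22 RNA needed to mature the small subunit RNA in frog oocytes. Snord87 in Snhg6 had -0.82 and -0.91, Snord64 in Snhg14 had 0.95 and -0.08, and Snora78 in Snhg9 had -0.50 and -1.19, of which only Snora78 in the NPC series passed (adjusted p = 0.00976, edgeR).

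**Figure D3:**
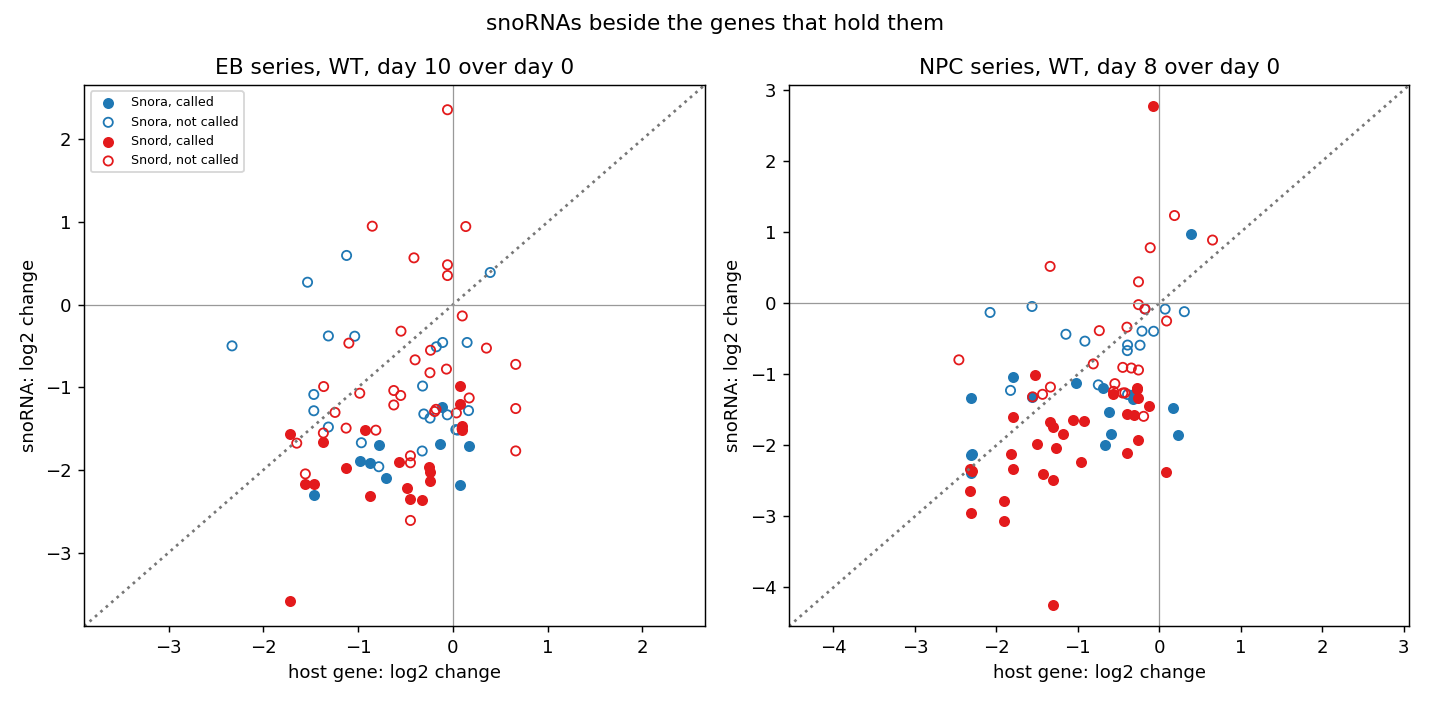
Log2 change of the host (x axis) against that of the small nucleolar RNA in it (y axis) in WT cells, on the last day over day 0, for the EB series (left) and the NPC series (right). The dotted line marks equal change, and filled points are RNAs with an adjusted p under 0.05. The RNA lies below the line in 69 of 86 pairs of the EB series and in 58 of 86 pairs of the NPC series.

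The same time comparisons were made in the lines. In CBX7-CaPS embryoid bodies 45 members were lower on day 10 and none was higher, where 12.1% of all genes were lower and 14.6% higher. At an unadjusted p under 0.05, 2 were higher, and none with DESeq2. The smallest p belonged to Snora3 (log2 change -1.79), Snord43 (-2.14), Snhg3 (-1.77), Snord2 (-1.93) and Snora31 (-2.06). Without day 0 library 1, or without day 10 library 2, 26 members were called. In CBX7-mCaPS embryoid bodies 30 were lower and 1 was higher, where 18.5% of all genes were lower and 17.8% higher, led by Snord43 (-2.09), Snora3 (-1.64), Snhg3 (-1.84), Snhg7 (-1.87) and Snhg15 (-1.54). The higher one was the rarely counted Snord67, with 0.678, 0.162 and 0.213 CPM on day 10, against 0.0915, 0.0717 and 0 CPM on day 0 (adjusted p = 0.0409, edgeR). The count of calls was 18 without day 10 library 1, 20 without day 10 library 3 and 31 without day 0 library 3, in which Rn45s was so high. In KO embryoid bodies 22 were lower and none was higher, where 9.87% of all genes were lower and 15.5% higher. At an unadjusted p under 0.05, 1 was higher, and none with DESeq2. Snora3 (-1.60), Snhg12 (-1.70), Snhg3 (-1.64), Snord43 (-1.68) and Snord83b (-2.53) had the smallest p. The KO count was 43 with the replicate number as a block, and without one library it fell to 11 (day 0 library 1), 12 (day 0 library 3), 10 (day 10 library 1) or 11 (day 10 library 2).

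In CBX7-CaPS neural progenitors 55 members were lower on day 8 and none was higher, where 22.6% of all genes were lower and 26% higher. None was higher at an unadjusted p under 0.05 or with DESeq2. Snord83b had 0.848, 0.551 and 1.15 CPM on day 8, against 11.3, 5.03 and 6.32 CPM on day 0, the largest of the 5 leading changes (log2 change -3.15, adjusted p = 8.53e-08, edgeR). The others were Snora61 (-2.75), Snord100 (-2.47), Snord49a (-2.18) and Snhg4 (-2.35). In KO neural progenitors 39 were lower and none was higher, where 20.1% of all genes were lower and 23.3% higher. At an unadjusted p under 0.05, 3 were higher, and 1 with DESeq2. Snord100 (-1.90), Snhg3 (-1.71), Snhg4 (-1.85), Snord83b (-1.67) and Snora3 (-1.36) led. The KO count was 19 without day 0 library 3 and 23 without day 8 library 2.

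In CBX7-mCaPS neural progenitors 32 members were lower and 4 were higher, where 21.5% of all genes were lower and 24.7% higher. The lower ones were led by Snord100 (-1.95), Snora3 (-1.54), Snord16a (-1.94), Snord83b (-1.57) and Snord1c (-2.99). The 4 higher ones were Snhg18, Snhg20, Snhg10 and Snord123, which had no read in the day 0 libraries and at most 0.323 CPM on day 8. Snhg18, host of Snord123, had 5.36, 5.23 and 6.47 CPM on day 8, against 0.717, 1.31 and 0.856 CPM on day 0 (log2 change 2.56, SE 0.673, adjusted p = 0.00282, edgeR). Snhg20 had 7.63, 13.6 and 18.9 CPM on day 8, against 3.81, 6.02 and 7.93 CPM on day 0, with a log2 change of 1.18. Snhg10 had 1.61, 2.30 and 3.43 CPM on day 8, against 0.896, 1.02 and 1.74 CPM on day 0, with a log2 change of 1.00. Snhg18 and Snord123 were apart in every library, and Snhg20 and Snhg10 overlapped. The count of calls was 23 without day 0 library 3.

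The mean summed levels of these lines were also lower on the last day, but the libraries overlapped for some. They overlapped with day 0 for Snora and Snhg in CBX7-CaPS embryoid bodies, for all 3 sums in CBX7-mCaPS neural progenitors and for Snora and Snord in KO neural progenitors. The other sums of the 3 lines did not overlap. The Snhg sum of CBX7-mCaPS embryoid bodies was 286 ± 5.69 CPM on day 10, against 505 ± 91.3 CPM on day 0, and that of KO embryoid bodies was 314 ± 27.3 CPM on day 10, against 571 ± 79.2 CPM on day 0 (SD, n = 3 each). The Snora sum of KO embryoid bodies was 84.2 ± 15.0 CPM on day 10, against 182 ± 54.3 CPM on day 0. In CBX7-mCaPS neural progenitors the Snora sum was 79.6, 90.0 and 203 CPM on day 8, with a mean of 124 ± 68.4 CPM (SD, n = 3), against a mean of 145 CPM on day 0. The Snord sum there was 107, 118 and 305 CPM on day 8. Both sums overlapped with day 0, and day 8 library 3 was the high one in both. In that library Rn45s took 36.6% of the counts and the other small structured RNAs of a list (7SK, 7SL, RNase P, vault, Y and Cajal body RNAs and the like) summed to 28420 CPM, the highest of the 36 libraries of the series. Without it the log2 ratio of the sums was -0.77 for Snora and -0.74 for Snord, against -0.22 and -0.09 with it. The part of that library in the results was otherwise not tested. In KO neural progenitors the Snord sum was 98.4 to 196 CPM on day 8, against 135 to 179 CPM on day 0, and the Snora sum was 72.6 to 130 CPM on day 8, against 129 to 150 CPM on day 0. Library 3 was the highest on day 8 for both. The log2 ratio of the Snord sum was -0.24, and lay between -0.61 (without day 8 library 3) and -0.06 (without day 8 library 1). In CBX7-CaPS embryoid bodies the Snora sum was 41.7 to 122 CPM on day 10, against 120 to 353 CPM on day 0, and the Snhg sum was 180 to 341 CPM on day 10, against 303 to 859 CPM on day 0.

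CBX7-CaPS-R cells stand in tables of their own with fewer genes, 81 members of 20824 genes in the EB series and 82 of 20930 in the NPC series, and were fitted alone. In embryoid bodies 10 of the 53 members tested were lower on day 10 and 1 was higher, where 8.78% of all genes were lower and 12.7% higher. Snhg1 had 29.5, 24.9 and 21.5 CPM on day 10, against 88.1, 74.4 and 75.3 CPM on day 0 (log2 change -1.65, adjusted p = 9.45e-05, edgeR). Snhg5 (-1.52), Snord22 (-1.29), Snord2 (-1.54) and Snhg3 (-1.52) followed. Snhg20, the higher one, had 7.71, 10.7 and 12.5 CPM on day 10, against 1.72, 3.48 and 5.58 CPM on day 0 (log2 change 1.49, adjusted p = 0.0213). Neither Snhg1 nor Snhg20 overlapped. The count of calls was 4 without day 0 library 2, 6 without day 0 library 3 and 6 without day 10 library 3. In neural progenitors 20 of the 48 members tested were lower on day 8 and none was higher, where 22.7% of all genes were lower and 25% higher. None was higher at an unadjusted p under 0.05 or with DESeq2. Snhg12 had 5.01, 5.07 and 5.55 CPM on day 8, against 23.7, 20.6 and 26.03 CPM on day 0 (log2 change -2.17, adjusted p = 2.57e-05), and Snhg1 (-1.61), Snhg5 (-1.22), Snhg3 (-1.60) and Snhg15 (-1.54) came next. Without day 0 library 3, 12 were called.

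Genes that work with the members were counted from lists, in WT cells. Over all genes tested, 14.5% were lower in embryoid bodies and 24.9% in neural progenitors, and the lists are short beside these shares. The 4 proteins of C/D particles had 1 lower and none higher in embryoid bodies, with a median log2 change of -0.99, and 4 lower in neural progenitors, with a median of -1.38. Nop56, a core C/D protein, was the one lower in both (-1.56 and -1.43), while fibrillarin (Fbl), the methyltransferase, had -0.68 (adjusted p = 0.48) and -1.43 (adjusted p = 1.09e-06, edgeR). Of the 4 H/ACA proteins 2 were lower in embryoid bodies and 4 in neural progenitors, among them dyskerin (Dkc1, -1.49 and -1.35), the pseudouridine synthase, and Nhp2 (-1.29 and -2.25). Of 12 assembly factors, 6 were lower in embryoid bodies and 10 in neural progenitors, among them Nolc1, a chaperone of these particles (-1.52 and -2.13). Of 12 genes of the nucleolus and RNA polymerase I, 8 were lower in embryoid bodies and 11 in neural progenitors, with Polr1b, a polymerase I subunit, at -1.49 and -2.17, Heatr1 at -1.48 and -2.09 and Nop2 at -1.47 and -2.41. No gene of these 4 lists was higher in either series. Among 9 other host and long noncoding RNA genes, 3 were lower in embryoid bodies and 5 in neural progenitors, with Gas5, a host of many C/D RNAs, at -1.65 (adjusted p = 4.46e-05) and -1.56 (adjusted p = 0.000181). Among 14 ribosomal and translation hosts, 1 was lower in embryoid bodies (Nop56) and 8 in neural progenitors. Of 8 genes of nonsense-mediated decay, 2 were lower in embryoid bodies and 3 in neural progenitors, with Smg5 at -0.96 and -1.06.

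Other short structured RNAs and marker genes were counted in the same way. Over all genes, 14.5% were lower and 14.7% higher in embryoid bodies, and 24.9% were lower and 27.5% higher in neural progenitors. Of 14 other small structured RNAs none passed in embryoid bodies (median log2 change 0.33), and in neural progenitors 1 was lower and 3 were higher (median 0.49), the higher ones being Scarna10 (1.76), Rnu12 (1.80) and Scarna17 (1.53) and the lower one Rnu73b (-1.64). Rnu73b is itself a small nucleolar RNA, which the rule missed because of its name. Rmrp, the RNA of a ribosomal RNA processing enzyme, had 0.71 and 0.99 and passed in neither. Of 8 pluripotency genes 8 were lower in embryoid bodies (median -3.31) and 7 in neural progenitors (median -6.08). Of 8 feeder fibroblast genes 5 were lower in embryoid bodies and 7 in neural progenitors, and their summed level was 946, 2435 and 2353 CPM on day 10, against 584, 3462 and 5051 CPM on day 0 of the EB series, and 438, 604 and 633 CPM on day 8, against 5321, 2689 and 1487 CPM on day 0 of the NPC series. All 9 genes of mesoderm, heart and blood were higher in embryoid bodies (median 6.59), and 5 of 6 neural genes were higher in neural progenitors (median 4.09). The part of the feeder cells, or of the mix of cell types, in the members' changes was not tested.

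Lines were then set against WT on the same day. In embryoid bodies no member passed in CBX7-CaPS cells on any day, where 0, 0 and 0.00562% of all genes were called at days 0, 6 and 10. By unadjusted p under 0.05 the counts were 0, 1 and 2, and DESeq2 called none. The EB libraries with the different share of even counts were all of WT or CBX7-CaPS. Same-numbered libraries of these lines also varied together. For CBX7-mCaPS or KO against WT in this series, a difference between sets of libraries thus cannot be told apart from one between lines. In CBX7-mCaPS embryoid bodies none passed either, where 0.916, 0.54 and 0.708% of all genes were called, and the unadjusted counts were 9, 10 and 11 and those of DESeq2 2, 0 and 1. In KO embryoid bodies 0, 0 and 1 passed, where 0.641, 0.646 and 0.877% of all genes were called, and 0.253% were higher on day 10. The unadjusted counts were 6, 13 and 21, and those of DESeq2 0, 0 and 2. The one was Snord1c, with 0.515, 0.463 and 0.797 CPM in KO cells on day 10, against 0, 0.157 and 0.131 CPM in WT cells (log2 difference 2.51, SE 0.588, adjusted p = 0.0236, edgeR). Its groups did not overlap. The call was lost without KO day 10 library 3 (adjusted p = 0.147) or without any 1 of the WT day 10 libraries 1, 2 and 3 (adjusted p = 0.122, 0.0542 and 0.0742), and kept without KO day 10 library 1 or 2.

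In neural progenitors no member passed in CBX7-CaPS cells against WT on any day, where 0, 0 and 0.0112% of all genes were called, with unadjusted counts of 0, 3 and 5 and none by DESeq2. In KO cells none passed, where 5.52, 0.0281 and 0.0505% of all genes were called, with unadjusted counts of 5, 13 and 7 and 1, 0 and 0 by DESeq2. In CBX7-mCaPS cells 0, 0 and 9 passed at days 0, 6 and 8, where 3.02, 2.22 and 18.5% of all genes were called. The unadjusted counts were 6, 6 and 18, and those of DESeq2 2, 0 and 12. All 9 were higher in CBX7-mCaPS cells, as were 9.39% of all genes, so the members' share was close to that of all genes. Snora65, in an intron of the ribosomal protein gene Rpl12, had 6.57, 10.0 and 27.6 CPM in CBX7-mCaPS cells on day 8, against 3.18, 5.22 and 4.09 CPM in WT cells (log2 difference 1.82, SE 0.417, adjusted p = 0.00431, edgeR). Snhg15 had 15.4, 22.5 and 75.6 CPM in CBX7-mCaPS cells, against 7.12, 14.9 and 9.23 CPM in WT cells (log2 difference 1.86, SE 0.456, adjusted p = 0.00646). Every CBX7-mCaPS library was above every WT library for both, and library 3 was the highest by far. Snord17 (log2 difference 1.43), Snhg12 (1.21), Snord19 (1.61), Snhg8 (0.66), Snord1b (1.82), Snord37 (2.30) and Snhg18 (1.84) made up the rest. Without CBX7-mCaPS day 8 library 3 no member passed. The count was 2 without WT day 8 library 1 and 5 without WT day 8 library 2 or 3.

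Snhg18 stood apart from the others in its spread. It had 5.36, 5.23 and 6.47 CPM in CBX7-mCaPS cells on day 8, against 0.415, 1.94 and 2.40 CPM in WT cells (adjusted p = 0.0482, edgeR). Library 3 was close to the other 2 here. On day 6 it had 4.62, 4.93 and 4.68 CPM in CBX7-mCaPS cells, against 0.761, 4.27 and 3.18 CPM in WT cells, and on day 0 it had 0.717, 1.31 and 0.856 CPM in CBX7-mCaPS cells, against 2.04, 2.91 and 2.03 CPM in WT cells. It was thus below WT in every library on day 0 and above WT in every library on days 6 and 8, where only the day 8 difference passed.

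**Figure D4:**
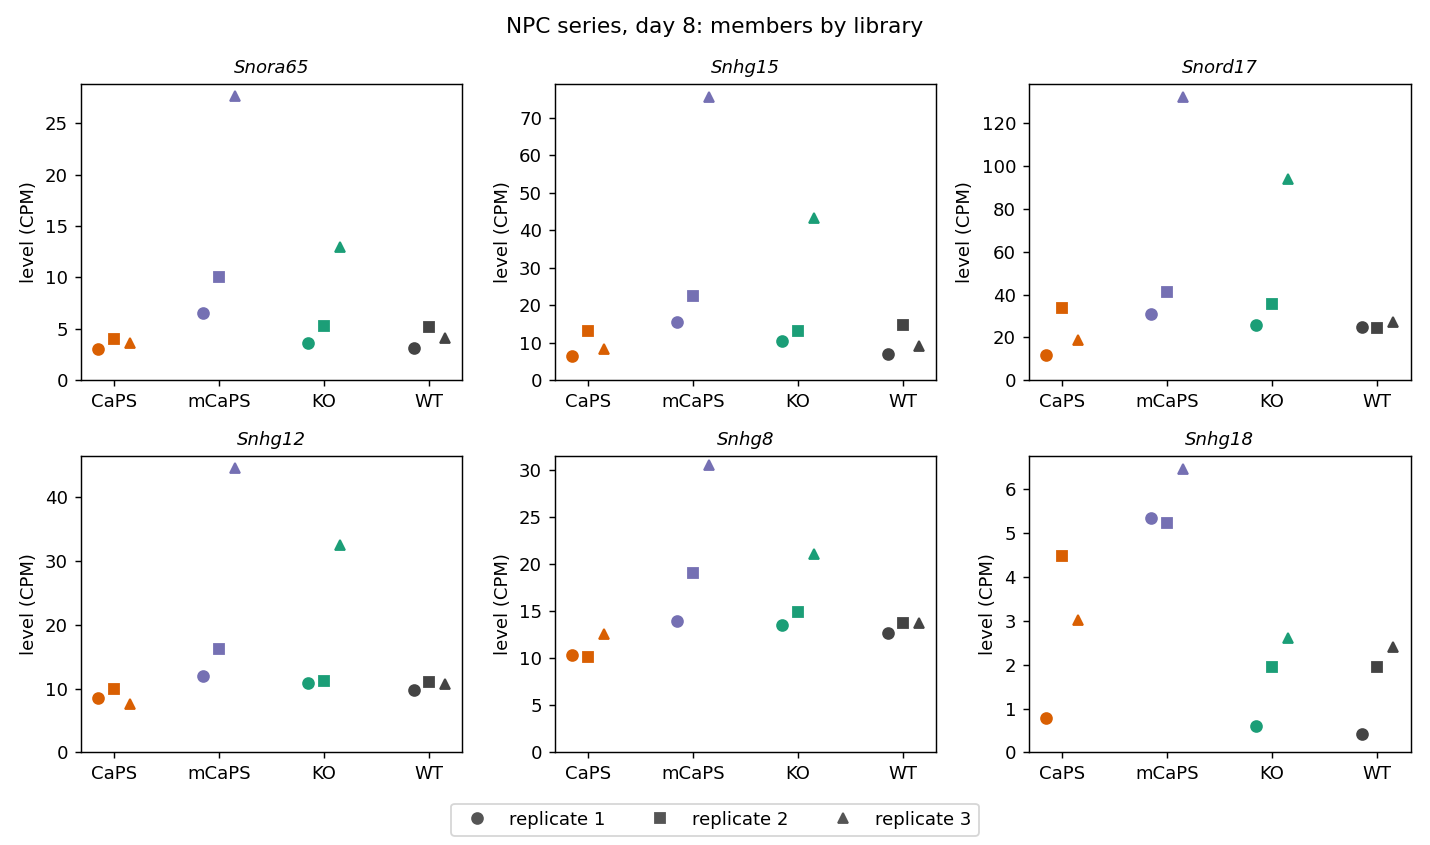
Level (CPM) of Snora65, Snhg15, Snord17, Snhg12, Snhg8 and Snhg18 in each library of day 8 of the NPC series, by line, with markers for the replicate numbers. Library 3 of the CBX7-mCaPS line is the highest of its line for each of the 6, and library 3 of the KO line is the highest of its line as well. Snhg18 is the one where the 3 CBX7-mCaPS libraries lie close together.

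CBX7-CaPS and CBX7-mCaPS neural progenitors were compared with each other too. In the EB series this comparison was not made, because these lines appeared to lie in different sets of libraries. The calls were 0, 0 and 5 at days 0, 6 and 8, where 2.1, 0.0112 and 1.59% of all genes were called, with unadjusted counts of 3, 6 and 32 and 0, 0 and 14 by DESeq2. All 5 were lower in CBX7-CaPS cells, where 0.427% of all genes were. Snora65 had 3.004, 3.97 and 3.59 CPM in CBX7-CaPS cells on day 8, against 6.57, 10.0 and 27.6 CPM in CBX7-mCaPS cells (log2 difference -2.06, SE 0.419, adjusted p = 0.0159, edgeR). The other 4 were hosts, Snhg15 (-2.02), Snhg8 (-0.95), Snhg6 (-1.51) and Snhg12 (-1.48). Snora65 did not overlap, and CBX7-mCaPS library 3 was again the highest. No member passed without CBX7-mCaPS day 8 library 3 or without CBX7-CaPS day 8 library 1. The count was 1 without CBX7-mCaPS day 8 library 2, 2 without CBX7-CaPS day 8 library 3 and 10 without CBX7-mCaPS day 8 library 1.

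Whether a line's change over time differed from that of WT was tested as the difference of the 2 changes. In the EB series no member passed for CBX7-CaPS, CBX7-mCaPS or KO, where 0, 0 and 0.00562% of all genes were called, with unadjusted counts of 1, 5 and 1 and none by DESeq2. In the NPC series none passed for CBX7-CaPS and KO, where 0 and 0.337% of all genes were called, with unadjusted counts of 1 and 8 and none by DESeq2. For CBX7-mCaPS 3 members passed, where 9.49% of all genes were called, with an unadjusted count of 17 and 5 by DESeq2. They were Snhg12, Snhg15 and Snhg18, with differences of 1.68 (SE 0.544, adjusted p = 0.0483), 2.10 (SE 0.63, adjusted p = 0.0333) and 3.12 (SE 0.927, adjusted p = 0.0315) by edgeR. Snhg12 had a log2 change of -0.63 in CBX7-mCaPS cells and of -2.31 in WT cells, and Snhg15 one of 0.46 in CBX7-mCaPS cells and of -1.64 in WT cells. Snhg18 had 2.56 in CBX7-mCaPS cells and -0.56 in WT cells. No member passed without CBX7-mCaPS day 8 library 3, CBX7-mCaPS day 0 library 1, WT day 0 library 2 or WT day 8 library 1.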

How the data were processed

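The files hold raw read counts per gene, as deposited by the authors, with a table per series for 4 lines and a separate one for CBX7-CaPS-R. Per the labels' protocols, libraries were made with the NEBNext Ultra II Directional modules after rRNA depletion, with adapter ligation and bead cleanup. Such cleanup can lose short fragments, so a count at a small nucleolar RNA may miss most of the mature RNA. The submitters' processing notes name cutadapt 1.14, STAR 2.7.0, featureCounts 1.6.3, edgeR, HOMER 4.10.4 and the build mm10, with no roles, and the strand setting of the counting was not given in the sources used here, so reads of overlapping antisense genes cannot be told apart. Rows whose names had turned into dates (22, 22 and 23 in 3 tables) and 1 incomplete line were left out, as were 9 columns that match no sample.

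Counts were fitted per series with edgeR 4.0.16 (R 4.3.3; filterByExpr, TMM, robust quasi-likelihood F test) over 36 libraries in 12 groups, with Benjamini-Hochberg adjustment over 17791 genes (EB) or 17818 genes (NPC) and a threshold of 0.05. CBX7-CaPS-R was fitted alone over 13058 and 12763 genes. The SE is the size of the log2 ratio over the square root of F. The alternatives were DESeq2 1.42.0, no filter, Rn45s left out of library sizes, the replicate number as a block and libraries left out. The procedure was also tested on counts simulated from the EB series, with the same spread for every gene and no library apart from the rest. That test does not cover libraries such as those numbered 1. The members, the gene lists and the rule for named genes (every Snhg host, up to 5 members per direction by p in each comparison, the 5 highest per length in each class, those called most often, and hosts with their RNAs) were chosen with earlier results of these data known.

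Deviations of same-numbered libraries from their group means were correlated over genes as a check of pairing. Every correlation was above 0.1 for CBX7-CaPS against WT on each day of both series (lowest 0.116), and in the EB series for WT day 6, WT day 10, CBX7-CaPS day 10 and KO day 10 against day 0 (lowest 0.108). The numbers thus seem to pair the libraries there only, from the data and not from the labels. The main tests were unpaired there too, and the replicate number was used only as a block in an alternative. No 2 libraries held identical counts.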

Additional observations from a re-analysis of the deposited data

Results flagged for a closer look

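The hosts Snhg12, Snhg15 and Snhg18 were singled out because their change over time differed between CBX7-mCaPS and WT cells of the NPC series by a test of the difference itself (edgeR, adjusted over all genes). They were 3 of the 107 members tested, where 9.49% of all genes were called, so the members' share was below that of all genes. For Snhg12 the log2 change in CBX7-mCaPS cells minus that in WT cells was 1.676 (SE 0.544, adjusted p = 0.0483), and the adjusted p ran between 0.0217 and 0.334 over the alternatives. For Snhg15 the difference was 2.099 (SE 0.63, adjusted p = 0.0333), with adjusted p between 0.0114 and 0.279. For Snhg18 it was 3.116 (SE 0.927, adjusted p = 0.0315), with adjusted p between 0.00482 and 0.0832. Without CBX7-mCaPS day 8 library 3 the differences were 0.89, 1.10 and 3.01, and none passed. No cause was tested.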

How the results depend on the processing

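Counts below are of members called in either direction, set beside the count in the report. In the EB series, DESeq2 gave 39 for KO day 10 (22 in the report), 17 for WT day 6 (5), 3 for CBX7-mCaPS against WT over the 3 days (0) and 2 for KO against WT (1). Without the 6 libraries of WT and CBX7-CaPS numbered 1 there were 15 for WT day 10 (38), 44 for KO day 10, 1 for WT day 6 and 3 for KO against WT, and 7 members lower in all 8 time comparisons (14). Without the 2 libraries over 60% Rn45s, chosen after seeing the data, there were 36 for KO day 10, 17 for WT day 6, 2 for KO against WT and 1 for CBX7-mCaPS against WT. In the NPC series DESeq2 gave 14 for CBX7-CaPS against CBX7-mCaPS (5), 14 for CBX7-mCaPS against WT (9), 1 for KO against WT (0) and 5 for the difference of changes between CBX7-mCaPS and WT (3). With no filter on low counts CBX7-CaPS against CBX7-mCaPS had 3. Without the day 8 libraries of CBX7-mCaPS and KO numbered 3, also chosen after seeing the data, these 3 comparisons of CBX7-mCaPS had 0 against CBX7-CaPS, 3 against WT and 0 for the difference of changes. Without the day 0 libraries of WT and CBX7-CaPS numbered 1 there were 14 against WT and 1 for the difference of changes. One fit of 45 libraries gave CBX7-CaPS-R 17 calls for EB day 10 (11) and 33 for NPC day 8 (20). Its NPC Snora sum had a log2 ratio of -1.202 outside Rn45s, against -1.454. The causes were not tested.

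With the replicate number as a block there were 43 for EB KO day 10, 19 for EB WT day 6, 2 for EB KO against WT and 1 for EB CBX7-mCaPS against WT, 11 for NPC CBX7-CaPS against CBX7-mCaPS and 1 for NPC KO against WT. The block kept every other count of calls within 1.5 times, among them 50 for EB WT day 10 and 55 for NPC WT day 8. Where the numbers do not pair the libraries these values say nothing of the size of an effect.

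Leaving out each library in turn gave 14 to 47 for EB WT day 10, 0 to 5 for EB WT day 6, 26 to 47 for EB CBX7-CaPS day 10, 18 to 31 for EB CBX7-mCaPS day 10, 10 to 22 for EB KO day 10 and 4 to 15 for EB CBX7-CaPS-R. It gave 0 to 2 for EB KO against WT, 0 to 1 for EB CBX7-mCaPS against WT and 0 to 2 for NPC KO against WT. In the NPC series it gave 28 to 41 for WT day 6, 23 to 37 for CBX7-mCaPS day 8, 19 to 46 for KO day 8, 12 to 17 for CBX7-CaPS-R, 0 to 10 for CBX7-CaPS against CBX7-mCaPS, 0 to 13 for CBX7-mCaPS against WT and 0 to 5 for the difference of changes. Members lower in all 8 time comparisons numbered 8 to 14. The counts for NPC WT day 8 (46 to 55) and NPC CBX7-CaPS day 8 (39 to 60) stayed within 1.5 times. The log2 ratio of the sums ran from -1.155 to 0.299 for EB WT Snora, -0.833 to 0.043 for EB WT Snord, -0.773 to 0.015 for NPC CBX7-mCaPS Snora and -0.742 to 0.171 for NPC CBX7-mCaPS Snord. Of the hosts not called in WT cells of that series, the log2 change crossed 0 for Snhg11 (-0.05 to 0.829), Snhg14 (-0.105 to 0.752), Snhg18 (-0.251 to 0.363) and Snhg6 (-0.482 to 0.412) for EB day 10 and for Snhg14 (-0.562 to 0.421) for NPC day 8. Without the 6 EB libraries it was -0.427 for Snhg18 and 0.16 for Snhg6. Over the 113 named pairs of gene and comparison, DESeq2 gave 112 the same call and direction, the block 106, Rn45s left out 111 and no filter 106. Where libraries were left out fewer stayed. The 6 EB libraries left 30 the same, 9 no longer called, 1 newly called and 2 reversed, and the day 8 libraries numbered 3 left 44 the same and 16 no longer called. The settings without a single library left 572 values the same, 113 no longer called, 3 newly called and 8 reversed. Members counted at under 1 CPM, such as Snord98 and Snord1c, rest on few reads.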
